A study of Solanum lycopersicum with 24 samples.

Results

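A set of 3 chromatin-related genes of tomato (Solanum lycopersicum) is described here in shoot meristems of the slful mutant and of the wild type (WT). They are Solyc11g073080, described in the authors' tables as Methyl-CpG-binding domain-containing protein 6, Solyc12g087950, described as an AT-hook motif nuclear-localized protein, and Solyc05g005290, described as a Poly [ADP-ribose] polymerase. These 3 genes, of 34075 in the deposited expression table, were chosen by their expression in slful against WT, seen earlier in the same values, and taken from it by ID. Taking them by ID used no threshold. Each was, however, held by 3 of the authors' 4 deposited tables of slful against WT, the source of its description. Those tables list genes past a log2 fold change of 1 in size with a false discovery rate under 0.05. Levels in slful against WT are therefore a description with no test. All 3 were among the 18786 genes with at least 0.5 RPKM (reads scaled to gene length in kilobases and to M, the unit mega, of reads mapped in the library) in at least 3 libraries.

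In the legend that came with the tables slful stands for ful1/ful2/mbp10/mbp20, a plant altered in 4 FRUITFULL-like genes. The kind of mutation and the cultivar are not given in those sources. The 8 groups are slful and WT at the vegetative meristem (VM), at the transition meristem (TM), at the floral meristem with the inflorescence meristem next to it (FIM), and at the same pair of meristems on the first sympodial shoot (SFIM). Each group has 3 biological replicates, and each sample pooled 30 to 60 meristems of greenhouse plants, so the spread between samples is a spread between pools. In such bulk samples fewer cells of a type and less RNA per cell cannot be told apart.

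Chromatin is DNA wrapped on histone proteins, and the proteins that bind it help to set which genes can be read. Methyl-CpG-binding domain proteins recognise DNA with methyl groups on cytosine, a mark that plants keep on transposons and on some genes. AT-hook motif nuclear-localized proteins of plants hold the minor groove of AT-rich DNA, and in Arabidopsis several of them affect hypocotyl growth and flowering time. Poly ADP-ribose polymerases attach chains of ADP-ribose to proteins, best known at broken DNA and under stress. FRUITFULL-like genes encode MADS-domain transcription factors of the switch to flowering.

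Depth as implied by the RPKM values ranged between 29.36 and 32.66 M reads over the 12 libraries of VM and SFIM, and between 12.93 and 90.37 M reads over the 12 libraries of TM and FIM. Numbers have up to 10 decimals at VM and SFIM and longer tails at TM and FIM, so TM against VM and SFIM against FIM cross a difference of format that cannot be told apart from stage. FUL1 (Solyc06g069430, 1 of the 4 genes named in the genotype) was still read in slful, at 10.7 to 11.8 RPKM in slful FIM against 28.1 to 34.8 RPKM in WT FIM, while at VM it overlapped between genotypes. Since the kind of mutation is not known, this level does not check the labels. The labelled tissue was not checked against meristem markers, since no marker ID chosen for it is paired with a name in the files. Of 7 genes with a leaf word in their description (chlorophyll a-b binding, photosystem or ribulose bisphosphate carboxylase), the summed level was 17.4 to 31.4 RPKM in slful SFIM against 7.57 to 11.3 RPKM in WT SFIM, and 56.1 to 61.7 RPKM in slful TM against 57.9 to 173 RPKM in WT TM, with none of the 7 at 0 in every library of a group. Of 5 genes with a trichome word (terpene synthase, terpenoid or acylsugar) the sum was 1.35 to 5.59 RPKM in slful SFIM against 1.29 to 2.40 RPKM in WT SFIM, and 2.41 to 9.68 RPKM in slful FIM against 1.04 to 2.61 RPKM in WT FIM. The part of leaf and trichome genes in the differences below was not tested.

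The methyl-CpG-binding gene Solyc11g073080, whose Arabidopsis namesake binds methylated DNA, was the most abundant of the 3 and the only one that was lower in slful. At VM it had 7.83, 7.57 and 8.56 RPKM in the slful libraries against 11.9, 14.8 and 16.2 RPKM in the WT libraries. All 3 slful libraries lay below all 3 WT libraries, as they did for 6.2% of the genes tested at VM, 9.74% at TM, 9.91% at FIM and 6.37% at SFIM. At TM it had 10.2, 8.29 and 6.36 RPKM in slful against 21.4, 17.9 and 15.6 RPKM in WT, at FIM 9.38, 7.53 and 5.44 RPKM in slful against 15.0, 15.9 and 15.7 RPKM in WT, and at SFIM 6.26, 5.36 and 7.68 RPKM in slful against 11.6, 12.9 and 14.5 RPKM in WT. The genotypes did not overlap at any stage, and the lowest WT library of all (11.6 RPKM) stood above the highest slful library (10.2 RPKM). Slful below WT without overlap at each of the 4 stages was seen in 28 genes, or 0.149% of those tested, and since the gene was chosen for its difference nothing is read from this.

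The mean ratio of slful to WT was 0.559 at VM, 0.451 at TM, 0.479 at FIM and 0.495 at SFIM. On log2(RPKM + 0.5), a scale that understates the change of low genes, slful minus WT was -0.79 (SE 0.14) at VM, -1.11 (SE 0.22) at TM, -1.05 (SE 0.21) at FIM and -0.97 (SE 0.17) at SFIM, with n = 3 libraries per group. The values rest on 462 to 584 reads per slful group and 981 to 2655 reads per WT group. The authors' deposited tables list genes past a log2 fold change of 1 in size that also have a false discovery rate under 0.05. They hold this gene at TM (-1.15), FIM (-1.01) and SFIM (-1.04). VM, the stage with the smallest difference, is the one whose table does not list it.

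**Figure D1:**
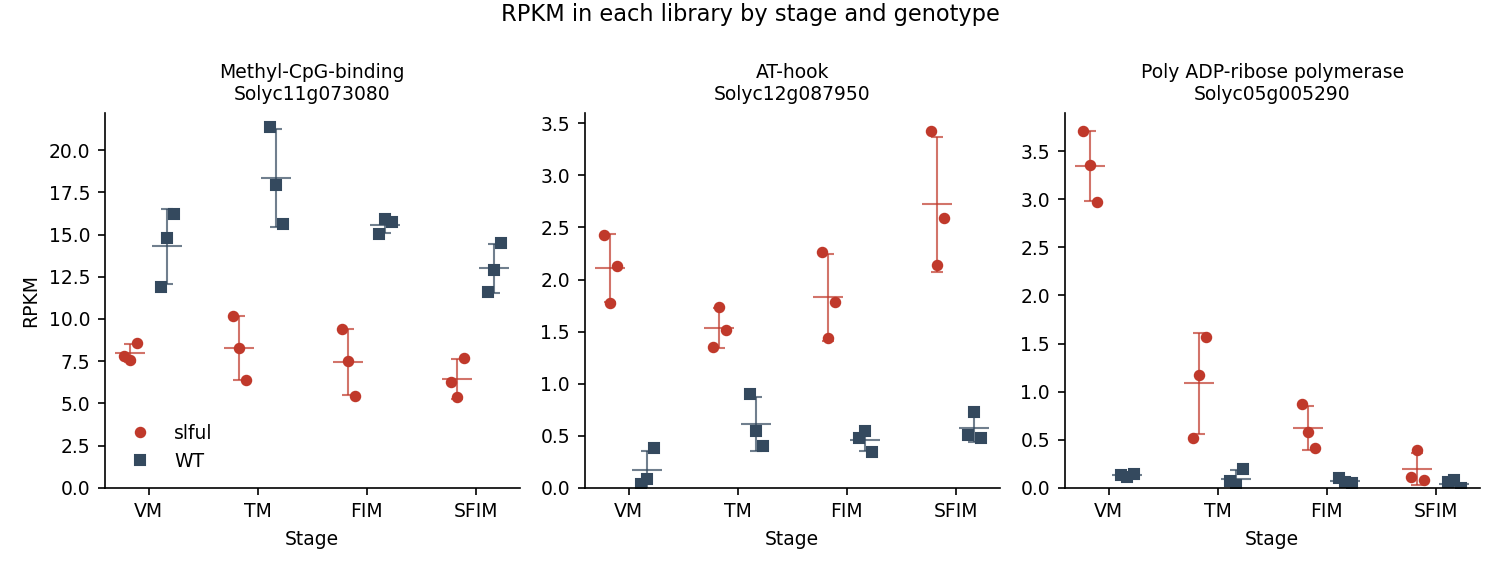
RPKM (y axis, from 0, a separate scale per gene) in each of the 24 libraries by stage (x axis), with slful as red circles left of WT as dark squares; bars give the mean and the SD of 3 libraries. The methyl-CpG-binding gene lies lower in slful at every stage, the AT-hook gene higher at every stage, and the polymerase gene goes down in slful from 3.34 RPKM at VM to 0.196 RPKM at SFIM while WT stays below 0.2 RPKM.

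The AT-hook gene Solyc12g087950, of a family of DNA-binding proteins of AT-rich sequence, was higher in slful at all 4 stages. At VM it had 2.43, 1.77 and 2.13 RPKM in the slful libraries, against 0.0401, 0.0808 and 0.382 RPKM in the WT libraries, which is 1, 2 and 9 reads. All slful libraries lay above all WT libraries, as they did for 10.8% of the genes tested at VM, 5.91% at TM, 7.57% at FIM and 11.8% at SFIM. At TM the slful libraries had 1.35, 1.74 and 1.51 RPKM against 0.902, 0.546 and 0.401 RPKM in WT. FIM gave 2.26, 1.44 and 1.79 RPKM in slful against 0.474, 0.545 and 0.346 RPKM in WT, and SFIM gave 3.43, 2.14 and 2.59 RPKM in slful against 0.505, 0.726 and 0.483 RPKM in WT. No stage had an overlap between genotypes, and the lowest slful library (1.35 RPKM at TM) stood above the highest WT library (0.902 RPKM, also at TM). Slful above WT without overlap at each stage was seen in 62 genes, 0.33% of those tested.

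In fold terms VM stood out for this gene because WT was low there. The mean in slful was 12.6-fold that of WT at VM, from 153 reads in slful against 12 reads in WT, and the ratio of reads per M of library had a 95% exact interval of 7.16 to 25.4 for counting error alone. Of those 12 WT reads 9 came from replicate 3, and without that library the fold was 34.9. Without WT VM replicate 1 it was 9.10 and without WT VM replicate 2 it was 9.98. The size of the VM fold thus depends on a single WT library, while slful stayed higher each time. The fold was 2.49 at TM, 4.02 at FIM and 4.76 at SFIM. On the log2(RPKM + 0.5) scale slful minus WT was 1.99 (SE 0.24) at VM, 0.89 (SE 0.20) at TM, 1.28 (SE 0.17) at FIM and 1.58 (SE 0.19) at SFIM. In the authors' deposited tables the log2 fold change was 3.63 at VM, 1.99 at FIM and 2.21 at SFIM, and the TM table as used here does not hold the gene.

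The polymerase gene Solyc05g005290 differed most between slful and WT at VM and least at SFIM. At VM it had 3.70, 3.35 and 2.97 RPKM in slful against 0.135, 0.109 and 0.143 RPKM in WT, or 106 to 134 reads per slful library against 4 or 5 reads per WT library. At TM the slful libraries had 0.520, 1.17 and 1.57 RPKM against 0.0689, 0.0262 and 0.195 RPKM in WT. The lowest slful value at TM belongs to the shallowest library of the series and rests on 8 reads. FIM gave 0.869, 0.580 and 0.419 RPKM in slful against 0.106, 0.0646 and 0.0465 RPKM in WT. SFIM gave 0.114, 0.388 and 0.0858 RPKM in slful, which is 4, 14 and 3 reads, against 0.0566, 0.0771 and 0 RPKM in WT, which is 2, 3 and 0 reads. The WT library with 0 reads allows a level of up to 0.0812 RPKM, a limit set at 3 reads. The genotypes did not overlap at any stage, but at SFIM the lowest slful library and the highest WT library differed by 0 reads, with 3 reads in each. Slful lay above WT without overlap in 10.8% of the genes tested at VM, 5.91% at TM, 7.57% at FIM and 11.8% at SFIM. At every stage it did so in 0.33%, and since the gene was chosen for its difference nothing is read from this.

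All WT libraries of the polymerase gene were below 0.5 RPKM, the filter on low values, and 8 of the 12 slful libraries were above it. The gene thus passed the filter only through the group in which it was high. The mean in slful was 26.0-fold that of WT at VM, 11.2-fold at TM, 8.59-fold at FIM and 4.40-fold at SFIM. Single libraries moved this fold, which was 22.8 at TM without WT TM replicate 3, 2.24 at SFIM without slful SFIM replicate 2 and 6.93 at SFIM without WT SFIM replicate 2. The 95% exact intervals of the ratio of reads per M of library, for counting error alone, ran from 15.3 to 48.1 at VM, from 6.15 to 15.1 at TM, from 4.39 to 20.3 at FIM and from 1.61 to 14.9 at SFIM. On the log2(RPKM + 0.5) scale, slful minus WT was 2.61 (SE 0.08), 1.36 (SE 0.32), 0.95 (SE 0.17) and 0.33 (SE 0.20) in the same order of stages, and without slful SFIM replicate 2 the SFIM value was 0.14. The authors' deposited tables hold the gene at VM (log2 fold change 4.65), TM (3.35) and FIM (3.04), and the SFIM table does not list it. Whether the difference changes with stage was not tested, because it is made of the same contrasts for which the gene was chosen.

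**Figure D2:**
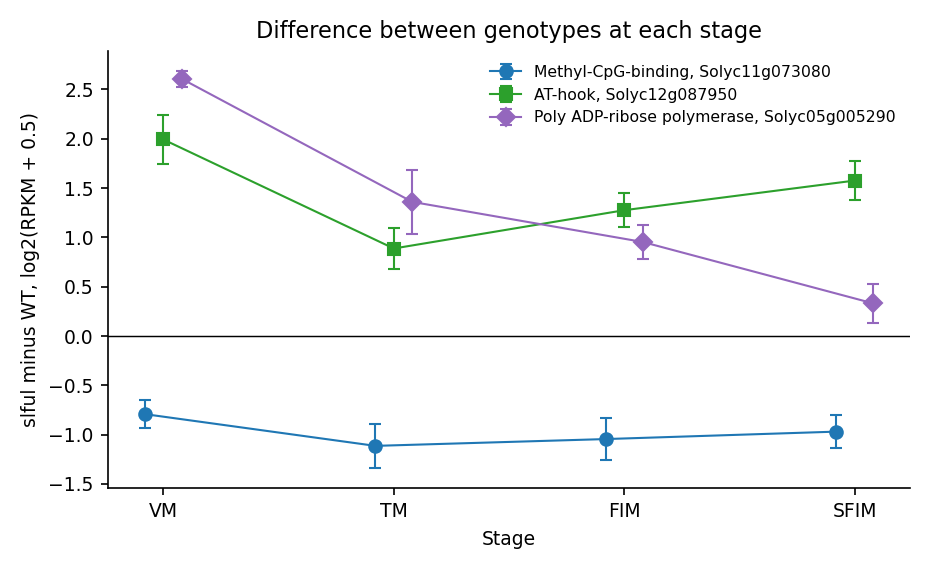
Slful minus WT on log2(RPKM + 0.5) (y axis) at each stage (x axis) for the 3 genes, with bars of 1 SE from 3 libraries per group. The methyl-CpG-binding gene stays between -1.11 and -0.79, the AT-hook gene between 0.89 and 1.99, and the polymerase gene goes down from 2.61 at VM to 0.33 at SFIM.

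Ordered by mean level over the 8 groups, the methyl-CpG-binding gene ran from WT TM (18.3 ± 2.90 RPKM, SD, n = 3) through WT FIM, WT VM and WT SFIM to slful TM (8.27 ± 1.90), slful VM, slful FIM and slful SFIM (6.43 ± 1.17). Neighbours in this order overlapped in their libraries except at the single step between the genotypes. The AT-hook gene ran from slful SFIM (2.72 ± 0.651 RPKM) through slful VM, slful FIM and slful TM (1.54 ± 0.195) to WT TM (0.616 ± 0.258), WT SFIM, WT FIM and WT VM (0.168 ± 0.187), and again only the step from slful TM to WT TM was without overlap. The polymerase gene was ordered by stage in slful, with slful VM (3.34 ± 0.366 RPKM) apart from slful TM (1.09 ± 0.528), which overlapped slful FIM (0.623 ± 0.228), and slful FIM apart from slful SFIM (0.196 ± 0.167). The 4 WT groups followed, from 0.129 ± 0.0179 RPKM at VM to 0.0446 ± 0.0399 RPKM at SFIM, and each of them overlapped its neighbour.

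Steps between stages within a genotype were not used to choose the genes, though they share libraries with the contrast that was. They were tested with limma on log2(RPKM + 0.5), with Benjamini-Hochberg adjustment over all 18786 genes, for the steps that stay within 1 number format, FIM against TM and SFIM against VM. Of the 3 genes 1 was called in slful and 1 in WT, both from VM to SFIM. The polymerase gene fell in slful, at 0.196 ± 0.167 RPKM in slful SFIM against 3.34 ± 0.366 RPKM in slful VM (SD, n = 3 each), a log2 change of -2.49 (SE 0.22, adjusted p = 2.08e-08). In this step 29.2% of all genes tested were called, 16.8% were called lower, and 56% had no overlap between the stages, so a call alone is common. It was called under each of the 14 alternatives that could be run, with adjusted p from 2.47e-11 to 0.000158. The high slful VM level in this step is, however, also part of the difference for which the gene was chosen, and of its passing the filter. In WT the same gene had 0.0446 ± 0.0399 RPKM in WT SFIM against 0.129 ± 0.0179 RPKM in WT VM, from 5 reads against 14 reads, and did not pass (-0.21, SE 0.22, adjusted p = 0.504). All WT SFIM libraries still lay below all WT VM libraries, in a step where 52.7% of all genes had no overlap. The WT change was -0.70 with a pseudocount of 0.1 (adjusted p = 0.217) and -1.68 with limma-voom (0.141). At so few reads a lack of change in WT is not shown.

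The AT-hook gene rose in WT, where the mean was 0.571 ± 0.135 RPKM in WT SFIM against 0.168 ± 0.187 RPKM in WT VM, with all SFIM libraries above all VM libraries. A lack of overlap in either direction was seen in 52.7% of all genes at this step. The log2 change was 0.71 (SE 0.20, adjusted p = 0.0112), in a step where 30.8% of all genes were called and 12.8% were called higher. That call ended without WT VM replicate 1 (adjusted p = 0.0648), WT VM replicate 2 (0.0544) or WT SFIM replicate 2 (0.0579), and adjusted p lay between 0.0021 and 0.0648 over all settings tried. Its low WT VM level is also part of the difference for which the gene was chosen. In slful the AT-hook gene had 2.72 ± 0.651 RPKM at SFIM against 2.11 ± 0.327 RPKM at VM and did not pass (0.29, 95% interval -0.13 to 0.72, adjusted p = 0.312). The methyl-CpG-binding gene passed in neither genotype, with -0.30 in slful (95% interval -0.67 to 0.06, adjusted p = 0.215) and -0.13 in WT (-0.49 to 0.24, adjusted p = 0.635). With 1 variance weight per group the slful value of that gene passed (adjusted p = 0.0395, the lowest of a range that reached 0.541).

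From TM to FIM, the step in which a floral meristem appears, 0 of the 3 genes passed in either genotype with limma. Of all genes tested 21.2% were called in slful and 10.1% in WT with limma. With limma-voom on recovered reads 0 of the 3 passed too, where 3172 of 18786 genes were called in slful and 2430 in WT. With limma the polymerase gene in slful had an unadjusted p of 0.0457, in a step where 21.2% of all genes were called even after adjustment. That gene had 0.623 ± 0.228 RPKM in slful FIM against 1.09 ± 0.528 RPKM in slful TM (-0.46, SE 0.22, adjusted p = 0.131). Without slful TM replicate 1, its shallow library, the log2 change was -0.75 with an adjusted p of 0.0165, in a range from 0.0165 to 0.486. In slful the AT-hook gene changed by 0.18 (95% interval -0.24 to 0.61) and the methyl-CpG-binding gene by -0.15 (-0.52 to 0.22), neither past the test. In WT the values were -0.21 (-0.63 to 0.22) for the AT-hook gene, -0.22 (-0.58 to 0.15) for the methyl-CpG-binding gene and -0.05 (-0.50 to 0.40) for the polymerase gene. The number of all genes called at this step depends on single libraries, and in slful it was 3983 with all libraries, 2439 without slful TM replicate 1 and 6230 without slful FIM replicate 3. In WT it was 1894, against 985 without WT TM replicate 1 and 1201 without WT FIM replicate 3.

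**Figure D3:**
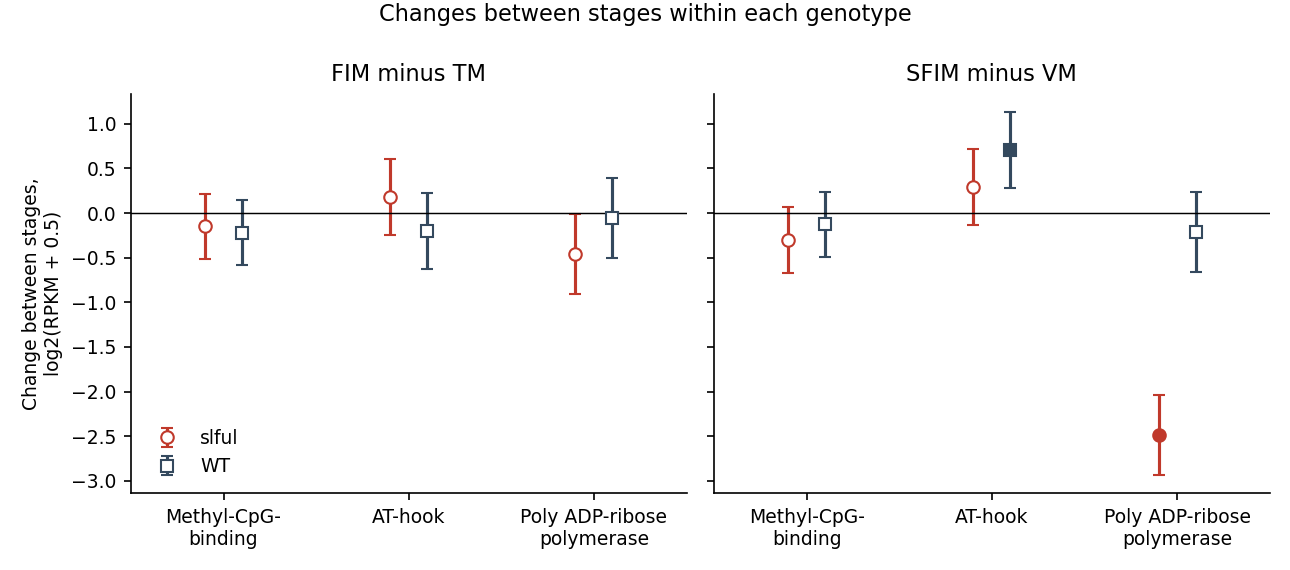
Change between stages on log2(RPKM + 0.5) (y axis) for each gene (x axis), FIM minus TM on the left and SFIM minus VM on the right, slful as circles left of WT as squares, with 95% intervals from limma; filled points have an adjusted p under 0.05. Filled are the polymerase gene in slful (-2.49) and the AT-hook gene in WT (0.71), both for SFIM minus VM.

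Correlations among the 3 genes differed in size, and in part in sign, between all libraries and the libraries of 1 genotype. Over all 24 libraries the Pearson correlation of log2(RPKM + 0.5) was -0.78 between the methyl-CpG-binding gene and the AT-hook gene, -0.56 between the methyl-CpG-binding gene and the polymerase gene, and 0.57 between the AT-hook gene and the polymerase gene. Within the 12 slful libraries these were -0.21, 0.29 and -0.22, and within the 12 WT libraries 0.46, -0.11 and -0.40. Over all 24 libraries the correlations take in the difference between slful and WT, by which the 3 genes were chosen. Their signs there follow in part from that choice. The libraries also share genotype, stage and depth, and the correlations are given as a description.

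The genes with the most similar pattern over the 24 libraries were sought among those with a deposited description, given only for genes of the authors' tables of changes. For the methyl-CpG-binding gene they were Solyc07g054630, a B3 domain-containing protein (Pearson r 0.85, the highest of 18783 genes), Solyc03g122170, a peroxisomal hydroxy-acid oxidase described as GLO4 (0.83), and Solyc10g073357, described as exocyst complex component SEC3A (0.81), ranks 1 to 3. For the AT-hook gene they were Solyc01g007070, BEL1-like homeodomain protein 3 (0.86, rank 3), Solyc06g076540, a Class I heat shock protein (0.86, rank 5), and Solyc07g017520, conserved oligomeric Golgi complex subunit 3 (0.85, rank 6), the highest r of all genes being 0.92. For the polymerase gene they were Solyc12g040860, a glucan endo-beta-glucosidase (0.95, rank 1), Solyc03g044900, Calmodulin-like 41 (0.94, rank 2), and Solyc10g076480, an Ammonium transporter (0.92, rank 3). Over all 24 libraries r takes in the difference between slful and WT, by which the 3 genes were chosen and the described genes were listed. The values of r and the ranks thus follow in part from that choice and are a description.

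A list of 27 words for chromatin proteins matched 7 of the 435 described genes, the 3 genes above and 4 others, of which 2 passed the filter on low values. Of those 2 genes 1 rose in slful against WT at each of the 4 stages, at VM beside 0.373% of all genes called higher, at TM beside 0.814%, at FIM beside 0.9% and at SFIM beside 0.277%. These shares depend on single libraries, and with 1 library left out the number called higher ran from 48 to 70 at VM (70 with all libraries), from 59 to 172 at TM (153), from 68 to 1175 at FIM (169) and from 22 to 43 at SFIM (52). The lowest at TM was without slful TM replicate 1, the lowest at FIM without WT FIM replicate 3, the highest at FIM without slful FIM replicate 3, and the lowest at SFIM without slful SFIM replicate 3. With same-numbered TM libraries paired, 117 genes were called higher at TM. Descriptions exist only for genes that the authors listed as changed in these samples, so this is not independent evidence. The median log2 change of the 2 was 0.93 at VM, 1.60 at TM, 1.90 at FIM and 0.51 at SFIM, against a median over all genes tested of 0.01, -0.02, -0.07 and 0.02.

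The gene that rose was Solyc06g050340, described as high mobility group B protein 7, of a family that bends DNA. Its slful libraries had 1.98, 0.925 and 1.21 RPKM at VM, 1.20, 2.57 and 1.84 RPKM at TM, 3.15, 4.58 and 3.002 RPKM at FIM and 1.16, 0.274 and 0.954 RPKM at SFIM. In WT a single read was found, in 1 VM library, and the other 11 libraries had 0 reads. Slful was at least 30.7-fold higher at TM, at least 40.6-fold at FIM and at least 7.95-fold at SFIM, with 3 reads taken as the limit of each WT library; at VM the ratio of 120 to 1 reads had a 95% exact interval of 21.3 to 4822 per M of library. The gene passed the filter on low values through 11 slful libraries and 0 WT libraries, and it is described only because the authors listed it in the same contrast, so its calls follow from how it was chosen. At SFIM the call (adjusted p = 0.0178) ended without slful SFIM replicate 1 (adjusted p = 0.118), slful SFIM replicate 3 (0.136) or WT SFIM replicates 1 (0.0773), 2 (0.0611) or 3 (0.0755), with a pseudocount of 1 (0.0734) and with a replicate block (0.0600), in a range from 0.000234 to 0.136. From TM to FIM in slful the gene gave 0.80 on the log2 scale (adjusted p = 0.0266), a step in which 21.2% of all genes were called. That call ended without slful TM replicates 1 (0.140) or 3 (0.0575) or slful FIM replicate 2 (0.101), with a pseudocount of 0.1 (0.0823), with the 6 libraries alone (0.193), with limma-voom (0.0798) and with 1 weight per group (0.349), in a range from 0.012 to 0.349.

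A further gene described as Poly [ADP-ribose] polymerase, Solyc03g114360, went the other way with stage from Solyc05g005290. It rose at SFIM against VM in both genotypes, with 6.99, 1.26 and 1.09 RPKM in slful SFIM against 0.0632, 0.0507 and 0.115 RPKM in slful VM (2.26 on the log2 scale, adjusted p = 0.000157), and with 4.01, 2.15 and 2.64 RPKM in WT SFIM against 0.0864, 0.0373 and 0.0785 RPKM in WT VM (2.56, adjusted p = 3.24e-05). Both calls stood under every alternative run. Slful libraries lay above WT libraries at TM (1.98 ± 0.492 against 0.788 ± 0.440 RPKM, SD, n = 3 each) and at FIM (1.68 ± 0.426 against 0.752 ± 0.0439 RPKM) without passing the test (adjusted p = 0.214 and 0.224), and the authors' deposited table lists the gene at FIM (log2 fold change 1.21). The same lack of overlap was seen in 5.91% of the genes tested at TM and 7.57% at FIM. The difference in direction between the 2 polymerase genes was not tested.

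Both untested genes of the list were low. Solyc08g059700, described as a histone acetyltransferase, an enzyme that acetylates histone tails, had 0.320 and 1.06 RPKM in 2 of the 3 slful TM libraries and 0.685 RPKM in 1 slful FIM library, with 0 in the remaining slful TM and slful FIM libraries, against at most 1 read in any WT library of these stages. Solyc10g018645, described only by a Myb/SANT-like domain, was lower in slful without overlap at VM (0.0260 ± 0.00905 against 0.205 ± 0.0605 RPKM) and SFIM (0.0209 ± 0.0237 against 0.224 ± 0.0972 RPKM), from 5 against 40 reads and 4 against 45 reads. Among the genes tested, which leave this gene out, slful lay below WT without overlap in 6.2% at VM and 6.37% at SFIM.

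**Figure D4:**
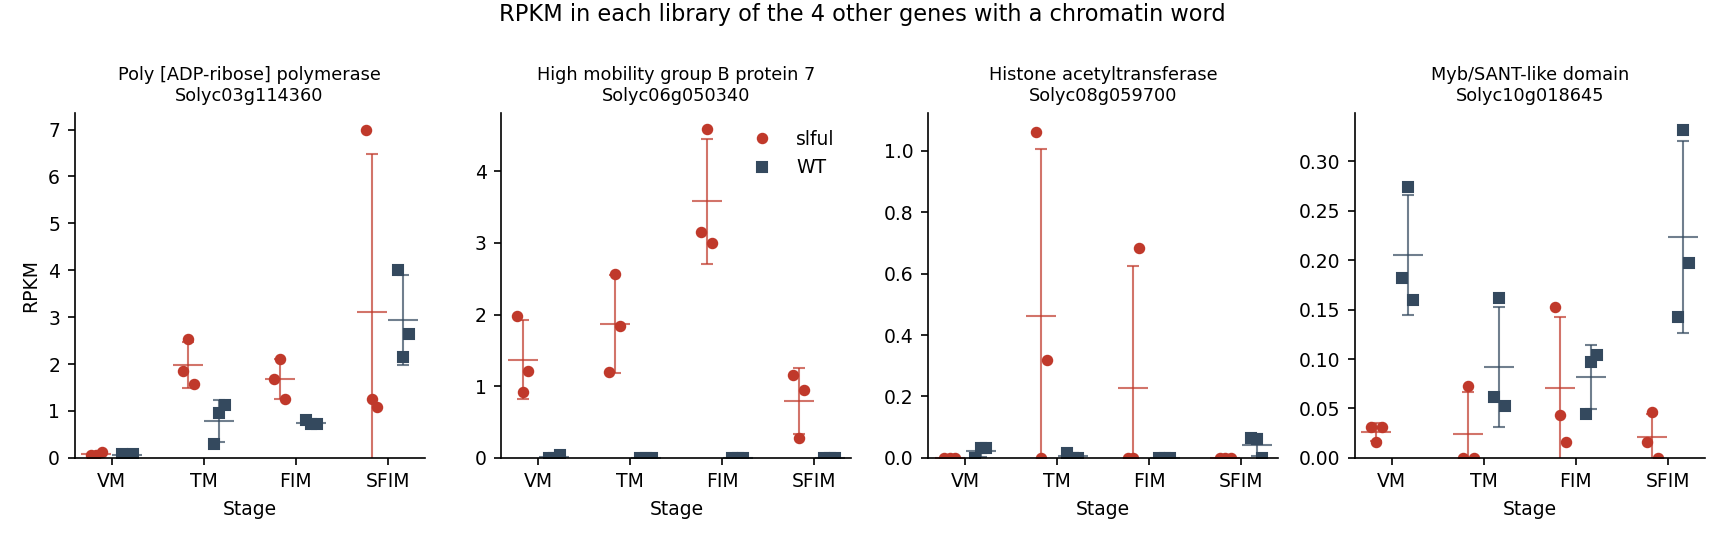
RPKM (y axis, from 0, a separate scale per gene) by stage (x axis) in each library for the 4 other genes matched by a chromatin word, slful as red circles left of WT as dark squares, with the mean and the SD of 3 libraries, bars cut off at 0. The high mobility group gene is read in slful at every stage and the mean of the polymerase gene Solyc03g114360 is highest at SFIM in both genotypes, with 1 slful library at 6.99 RPKM.

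By their IDs the 3 genes lie on chromosomes 11, 12 and 5, and the lengths behind their RPKM values are 807, 801 and 1191 bases. Genome coordinates were not used here. The 5 tested genes on either side of each gene in the order of IDs on its chromosome were looked at as a description, chosen after the values were seen. Of the 10 neighbours of the methyl-CpG-binding gene 1 was called in slful against WT at any stage, Solyc11g073100 at TM (-0.90 on the log2 scale), of the 10 of the AT-hook gene 0, and of the 10 of the polymerase gene 1, Solyc05g005460, described as a DC1 domain-containing protein, at VM (1.39). The call of Solyc11g073100 (adjusted p = 0.0168) was lost when slful TM replicate 1 (0.0654), slful TM replicate 3 (0.0559), WT TM replicate 2 (0.0603) or WT TM replicate 3 (0.0550) was left out, and stood with the TM libraries paired (0.0428), in a range from 0.00449 to 0.0654. Solyc11g073100 is a low gene that a mean of at least 1 RPKM left out. Its log2 difference at TM was -2.17 with a pseudocount of 0.1 and -0.54 with a pseudocount of 1. Over all genes tested 3.37% were called at 1 stage or more with limma. That share depends on single libraries, since at FIM 284 genes were called with all libraries and 4789 without slful FIM replicate 3. At an unadjusted p under 0.05 at 1 stage or more there were 6, 3 and 5 of 10 neighbours, against 41% of all genes tested. Median differences of the neighbours over the 4 stages were 0.03, -0.03 and 0.11 on the log2 scale.

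**Figure D5:**
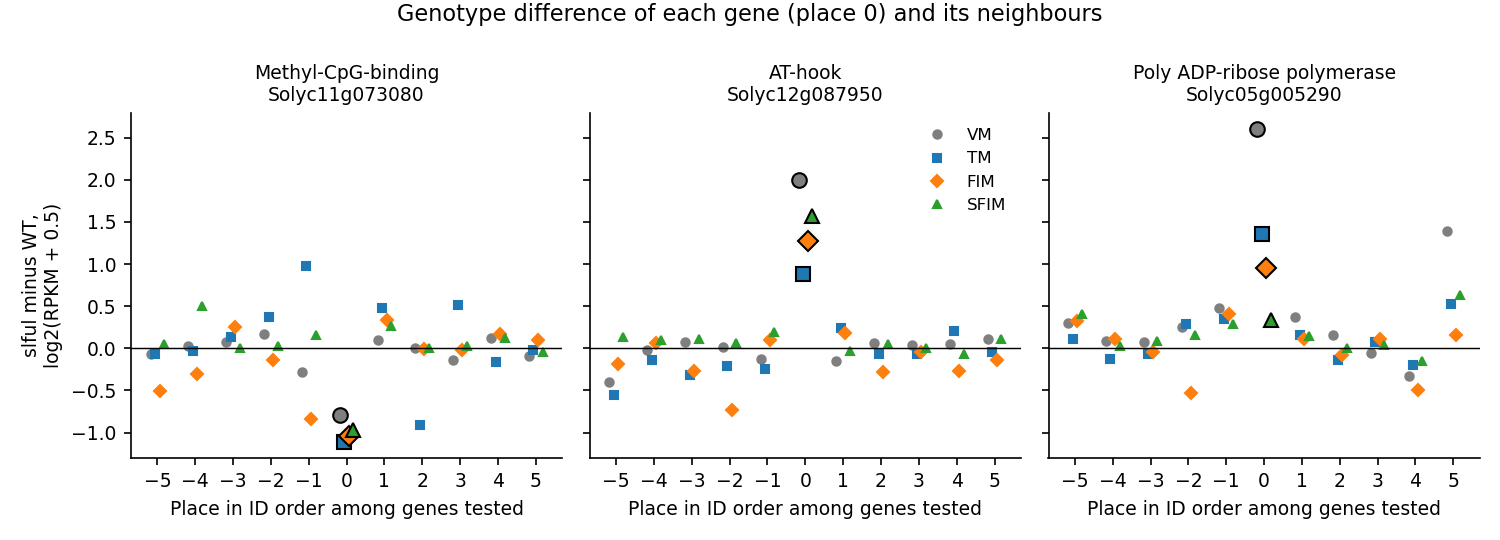
Slful minus WT on log2(RPKM + 0.5) (y axis) for each of the 3 genes at place 0 (large points with black edges) and for the 5 tested genes on each side in ID order (x axis), with 1 marker per stage. Neighbours range from -0.90 to 0.97, from -0.73 to 0.24 and from -0.53 to 1.39, and the polymerase gene at SFIM (0.33) lies within the range of its neighbours.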

How the data were processed

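RNA of 24 pooled meristem samples was sequenced after DNase treatment and TruSeq library preparation, per the labels' protocols. The authors deposited RPKM values per gene and library, per the file headers and legend, while the name of the table mentions raw counts, and the values are not whole numbers. Their own slful versus WT tables give, per the file headers, the larger group mean in RPKM, the log2 fold change and the fold change with a sign (a score, negative where slful was lower). Of these the log2 fold changes are quoted. The deposited tables also give p-values with their false discovery rate, which were not used beyond stating the limit of 0.05. The labels and headers name no aligner, genome build, strand setting or test. No gene ID matched the RefSeq gene table held.

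The 3 genes, word lists and tests were chosen with earlier results of these data known. Whole reads were recovered from the RPKM steps in pandas 2.3.3 and numpy 2.4.6 under Python 3.11.15 (intervals with scipy 1.17.1): 99.969% of values above 0 lay within 0.02 reads of a whole number and the rest within 0.05. Intervals from reads are exact (Clopper-Pearson) and hold for the error of counting reads alone, and PCR copies cannot be told from molecules. limma 3.58.1 in R 4.3.3 was fitted to log2(RPKM + 0.5) over all 24 libraries with a mean per group, variances moderated with a trend on the mean, and 2-sided tests; an adjusted p under 0.05 is a call. SEs of slful minus WT come from the replicates, SEs of stage steps from limma. Named genes are the 3, those of the chromatin word list, and for each of the 3 the 3 described genes of highest Pearson r. An exact permutation test of 3 against 3 libraries cannot go below p = 0.1, so none was run.

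Replicate numbers are shared between groups. Deviations of same-numbered WT FIM and WT TM libraries from their group means correlated at 0.184, 0.333 and 0.193, and those of slful TM and WT TM libraries at 0.228, 0.184 and 0.155, so the numbers were taken to pair them; the labels do not say so. Over such pairs the SE of slful minus WT at TM was 0.06 for the methyl-CpG-binding gene, 0.24 for the AT-hook gene and 0.26 for the polymerase gene. In each of the other comparisons at least 1 correlation was below 0.1. Alternatives were other pseudocounts, filters, centring, group weights, limma-voom, fewer libraries, a replicate block and leaving out each replicate, of which the block in slful versus WT and the ratios without 1 library were chosen after seeing the data.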

Additional observations from a re-analysis of the deposited data

How the results depend on the processing

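Slful minus WT of the 3 genes kept its sign under every alternative run. It moved by more than the replicate SD with the pseudocount alone, though without slful SFIM replicate 2 the polymerase gene at SFIM was 0.14 in place of 0.33. With a pseudocount of 0.1 it was 3.25, 1.245, 1.79 and 2.06 for the AT-hook gene and 3.91, 2.57, 2.03 and 0.94 for the polymerase gene at VM, TM, FIM and SFIM. With a pseudocount of 1 it was 1.42 at VM, 0.95 at FIM and 1.23 at SFIM for the AT-hook gene, and 1.94 at VM, 0.90 at TM and 0.59 at FIM for the polymerase gene. A mean of at least 1 RPKM removed the polymerase gene, so that filter gave it no value.

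Leaving out 1 library moved the step from TM to FIM in slful between -0.32 and 0.0458 for the methyl-CpG-binding gene and between -0.75 and -0.24 for the polymerase gene, and in WT between -0.14 and 0.0639 for the polymerase gene. The step from VM to SFIM in WT ran from 0.57 to 0.93 for the AT-hook gene. With 1 weight per group the methyl-CpG-binding gene passed from VM to SFIM in slful (-0.30). Solyc03g114360 at VM ran from -0.0257 to 0.0544 and at SFIM from -1.005 to 0.115 in slful minus WT.

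Counts of all genes called ran, over single libraries left out, from 2439 to 6230 for slful FIM versus TM and from 985 to 2186 for WT FIM versus TM. With the 6 libraries compared alone they were 418 for slful FIM versus TM, 8397 for slful SFIM versus VM and 734 for WT FIM versus TM. With 1 weight per group they were 641 for slful FIM versus TM and 8985 for slful SFIM versus VM. The median spread between replicates on the log2 scale was 0.233 in slful FIM and 0.08 in slful VM, while the main test shares 1 spread per gene over all groups. Centring turned 1610 higher and 2373 lower calls in slful FIM versus TM to 2228 and 1976. The causes were not tested. With replicate as a block, 3750, 5328, 1764 and 5660 genes were called in slful FIM versus TM, slful SFIM versus VM, WT FIM versus TM and WT SFIM versus VM, and the block changed no call of the 3 genes. In that block each replicate number had 1 effect per genotype over all 4 stages, so WT FIM and WT TM were not paired on their own. In slful versus WT at TM, where the numbers pair the samples, 201 genes were called with a block set within each stage and 339 without it. Depth limits the polymerase gene in WT and at SFIM, where libraries hold 0 to 21 reads.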
